A study of Mus musculus with 6 samples.

Results

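The genes that encode the Sm proteins, the Lsm proteins and the other proteins named Snrp were followed in astrocytes of mice that had received quinpirole. The members were all protein-coding genes in the tables with a symbol that begins with Snrp, or with Lsm followed by a digit. This gave 25 genes of the 17193 listed, and all 25 had a mean of at least 1 FPKM, a fragment number scaled to the size of the transcript and of the library. The astrocytes were isolated with anti-ACSA-2 microbeads from brains of 3-month-old wild type C57BL/6 mice. One group was labelled Mock (named saline elsewhere in the study) and the other Quinpirole, an agonist of the dopamine receptor DRD2, and each group had 3 libraries of poly-A mRNA. No other allele or agent is named for either group, and the labels do not say whether a library came from 1 mouse or from a pool. The p-values below judge group differences against the spread between libraries, and how far they hold for single mice is not known. The question of the comparison was which transcripts differ in astrocytes after DRD2 is activated.

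Sm proteins form a ring of different subunits around the small nuclear RNAs U1, U2, U4 and U5, the RNAs of the spliceosome. Lsm proteins are their relatives. A ring of Lsm2 to Lsm8 binds the end of U6 RNA in the nucleus, whereas a ring in which Lsm1 takes the place of Lsm8 binds mRNAs in the cytoplasm and promotes removal of their cap. Snrpa and Snrpc are proteins of the U1 particle, Snrpa1 and Snrpb2 of the U2 particle. Lsm10 and Lsm11 replace Snrpd1 and Snrpd2 in the U7 particle, which is needed to form the ends of histone mRNAs. These proteins are small, and most of their mRNAs are short.

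The coding sequences of 4 members are shown because they differ in how far their reads can be told from those of other genes. They run 5' to 3' from the start codon without the stop codon, from GENCODE M21 transcripts on GRCm38. Capitals mark bases that lie in a word of 50 bases also found in transcripts of another gene, mostly pseudogenes.

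Lsm8: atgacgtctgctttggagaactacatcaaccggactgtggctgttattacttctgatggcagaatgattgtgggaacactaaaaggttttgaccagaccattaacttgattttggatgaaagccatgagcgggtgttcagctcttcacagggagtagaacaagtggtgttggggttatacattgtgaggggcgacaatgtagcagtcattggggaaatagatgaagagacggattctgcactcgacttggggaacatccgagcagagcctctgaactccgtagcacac
Lsm6: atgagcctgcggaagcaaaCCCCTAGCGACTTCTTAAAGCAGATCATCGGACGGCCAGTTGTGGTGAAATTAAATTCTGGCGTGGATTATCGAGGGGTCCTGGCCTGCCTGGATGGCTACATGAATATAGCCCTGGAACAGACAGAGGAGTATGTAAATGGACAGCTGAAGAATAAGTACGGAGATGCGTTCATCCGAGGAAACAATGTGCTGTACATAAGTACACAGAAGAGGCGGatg
Snrpf: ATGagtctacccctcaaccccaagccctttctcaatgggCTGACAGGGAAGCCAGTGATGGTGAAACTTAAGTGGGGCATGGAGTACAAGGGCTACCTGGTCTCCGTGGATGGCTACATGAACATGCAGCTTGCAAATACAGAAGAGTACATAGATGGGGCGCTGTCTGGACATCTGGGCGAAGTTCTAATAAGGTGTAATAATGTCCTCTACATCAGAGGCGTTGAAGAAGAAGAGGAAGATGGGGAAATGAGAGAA
Snrpg: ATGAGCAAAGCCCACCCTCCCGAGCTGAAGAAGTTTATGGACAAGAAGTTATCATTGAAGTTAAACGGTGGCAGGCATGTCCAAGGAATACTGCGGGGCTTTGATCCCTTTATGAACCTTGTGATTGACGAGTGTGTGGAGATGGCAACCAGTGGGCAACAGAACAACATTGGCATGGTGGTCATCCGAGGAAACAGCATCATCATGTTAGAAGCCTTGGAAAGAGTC

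Lsm8, like Lsm4 and Snrpd3, had no coding base in a shared word, as was the case for 10 of the 25 members. In Snrpg and Lsm7 all coding bases lay in shared words, and in 11 members at least 50% did, among them Lsm6 (90.8%), Snrpf (86.1%) and Snrpc (79.9%). Over the whole transcript, untranslated ends included, only 2 members had at least 50% of their words shared, Lsm7 (62.8%) and Snrpf (89.5%). For Snrpg this share was 18.6%, for Lsm6 19.1% and for Snrpc 26.7%. How reads that fit several places were assigned is not given in the sources used here. The levels of the 11 genes with at least 50% of coding bases shared are therefore uncertain. Of the genes that shared words with Snrpg, the highest listed in the tables had a mean of 4.59 FPKM, and for Lsm7 this value was 10.1 FPKM. Snrpd3 overlaps Gucd1, and Snrpf overlaps Ccdc38, on the other strand, and the library kit named in the labels is not stated to keep strand. The mean of Gucd1 was 5.99 FPKM. Of the genes that shared words with Snrpf, the highest listed in the tables had a mean of 0.050 FPKM.

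After quinpirole, 4 of the 25 genes rose and none fell (limma, Benjamini-Hochberg adjusted p under 0.05 over all 12255 genes tested). These were Lsm8 of the nuclear U6 ring, Lsm4, which belongs to both Lsm rings, Snrpc of the U1 particle and Snrpd3 of the Sm ring. Of all genes tested, 5.74% were called higher and 5.18% lower. A higher mean after quinpirole was found for 23 of the 25 members against 53.8% of all genes, and the median difference on the log2(FPKM + 1) scale was 0.16 for the members and 0.015 for all genes. At an unadjusted limma p under 0.05, 12 members were higher and 0 lower. Of all 12255 genes tested, 3839 passed that unadjusted threshold in either direction. The differences were small, the largest being an increase of 28.4% in mean FPKM (Lsm8). The members are short, however, and short genes were higher in general: among the 2231 genes tested with a coding transcript of at most 1500 bases, 15.6% were called higher and 81.9% had a higher mean. Of the 17 members of that length, 3 were called and all 17 had a higher mean.

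**Figure D1:**
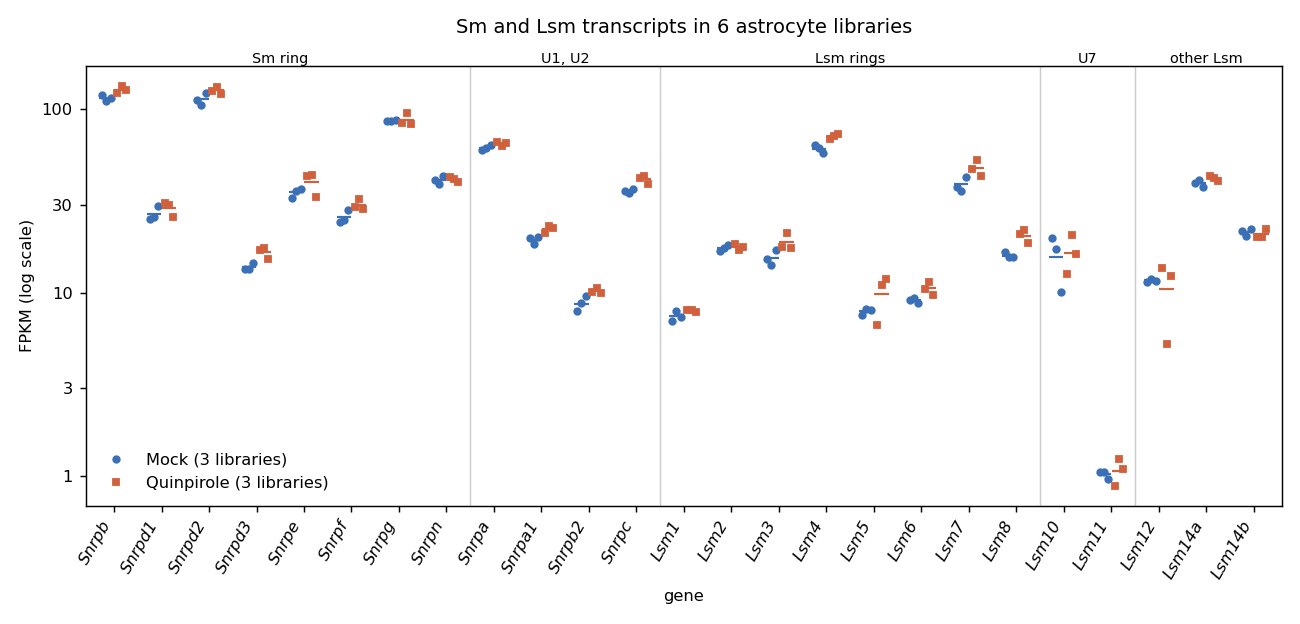
FPKM (log scale) of the 25 Sm and Lsm genes in each of 3 Mock libraries (circles) and 3 Quinpirole libraries (squares), grouped by role, with lines at the group means. For 11 genes all squares lie above all circles. Lsm12 has 1 square at 5.26 FPKM, far below its other 5 values.

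The 3 quinpirole values lay above the 3 mock values for 11 of the 25 members, against 20.0% of all genes tested, and below them for 0 members, against 16.9% of all genes. The 11 genes were Snrpb, Snrpd3 and Snrpf of the Sm ring, Snrpc, Snrpa1 and Snrpb2 of the U1 and U2 particles, and Lsm3, Lsm4, Lsm6, Lsm7 and Lsm8 of the Lsm rings. Their limma adjusted p ran from 0.0262 (Lsm8) to 0.0995 (Lsm3).

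Lsm8, the subunit that sets the nuclear ring apart from the cytoplasmic one, lies on chromosome 6 of GRCm38 (18848579 to 18855751, plus strand). Its level was 16.6, 15.6 and 15.6 FPKM in the mock libraries and 20.8, 21.9 and 18.7 FPKM in the quinpirole libraries. The groups were clearly apart, with a log2 difference of 0.34 ± 0.06 (SE, n = 3 per group, limma adjusted p = 0.0262). Lsm4, on chromosome 8 (70673248 to 70678752, plus strand), was the most abundant of the Lsm genes. It was listed at 63.8, 61.7 and 57.8 FPKM after mock treatment and at 68.7, 71.7 and 72.9 FPKM after quinpirole, again without overlap. The log2 difference was 0.22 ± 0.05 (limma adjusted p = 0.0354).

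The other subunits shared by both Lsm rings were unlike in spread, with SEs of the log2 difference from 0.05 (Lsm2) to 0.18 (Lsm5). Lsm7, which also lay apart in the 2 groups, was listed at 37.9, 36.0 and 43.0 FPKM and at 47.1, 52.8 and 43.1 FPKM. Mock 3 and Quinpirole 3 nearly met, and the log2 difference of 0.28 ± 0.09 missed the threshold (limma adjusted p = 0.0754). Lsm3 was at 15.2, 14.2 and 17.1 FPKM after mock treatment and at 17.8, 21.3 and 17.5 FPKM after quinpirole, a log2 difference of 0.26 ± 0.09. Lsm6 had 9.12, 9.32 and 8.78 FPKM against 10.5, 11.5 and 9.75 FPKM (0.20 ± 0.07 on the log2 scale). Neither gene passed the threshold. Lsm5 had the fewest estimated fragments of all, about 87.1 to 139 per library. The estimate used the depth derived from the lowest values and a transcript of 494 bases. The quinpirole values of Lsm5, 6.63, 11.003 and 11.9 FPKM, lay on both sides of the mock values of 7.59, 8.09 and 8.04 FPKM. Lsm2 differed little, with 16.8, 17.5 and 18.1 FPKM against 18.4, 17.2 and 17.6 FPKM and a log2 difference of 0.02 ± 0.05. Whether the subunits of one ring differed from each other in response was not tested.

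Lsm1, the subunit particular to the cytoplasmic ring, had 6.997, 7.91 and 7.37 FPKM after mock treatment and 8.004, 8.03 and 7.79 FPKM after quinpirole. The groups overlapped, and the log2 difference of 0.09 ± 0.06 did not pass the test (limma adjusted p = 0.348). The log2 difference of Lsm8 was 0.34, but whether the 2 ring-specific subunits differed in their response was not tested.

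Snrpc, which helps the U1 particle to hold the start of an intron, lies on chromosome 17 (27838150 to 27851968, plus strand). It was listed at 35.8, 34.8 and 36.6 FPKM after mock treatment and at 42.4, 43.3 and 39.0 FPKM after quinpirole. All quinpirole values were higher, by 0.21 ± 0.05 on the log2 scale (limma adjusted p = 0.0410). Snrpa, the other U1 protein, was more abundant and differed less, with 59.8, 61.6 and 63.8 FPKM against 66.6, 63.1 and 65.8 FPKM. Its groups overlapped at 1 value (log2 difference 0.08 ± 0.04, limma adjusted p = 0.235). The U2 proteins Snrpa1 and Snrpb2 differed by 0.18 ± 0.05 and 0.21 ± 0.07 on the log2 scale, without overlap of the groups and with limma adjusted p of 0.0703 and 0.0951. Snrpb2 was at 7.88, 8.73 and 9.53 FPKM in the mock libraries and at 10.1, 10.6 and 9.93 FPKM in the quinpirole libraries.

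The Sm ring subunits varied in mRNA level from 13.8 ± 0.577 FPKM (SD, n = 3) for Snrpd3 to 115 ± 4.16 FPKM for Snrpb in the mock libraries. These levels are per length, but the transcript lengths behind them are not given in the sources used here. Snrpb and Snrpd2 (114 ± 8.74 FPKM) overlapped at the top, and were followed by Snrpg (86.8 ± 0.404 FPKM), Snrpn (41.2 ± 2.18 FPKM) and Snrpe (35.3 ± 2.08 FPKM). Snrpd1 (26.9 ± 2.37 FPKM) and Snrpf (25.8 ± 2.08 FPKM) did not differ beyond their spread, and Snrpd3 was lowest. Snrpd3, on chromosome 10 (75517551 to 75537381, plus strand), was also the subunit that rose, from 13.4, 13.5 and 14.4 FPKM to 17.1, 17.6 and 15.2 FPKM. The quinpirole values were all higher, and the log2 difference was 0.26 ± 0.06 (limma adjusted p = 0.0480), close to the threshold.

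Snrpb, which encodes SmB, had 119, 111 and 116 FPKM after mock treatment and 123, 135 and 127 FPKM after quinpirole. The groups were apart by a small step, with a log2 difference of 0.15 ± 0.05 (limma adjusted p = 0.0756). Snrpn encodes a close relative of SmB, is imprinted and is known for its high level in neurons. It was at 41.0, 39.1 and 43.4 FPKM after mock treatment and at 42.5, 41.6 and 40.1 FPKM after quinpirole, a log2 difference of 0.01 ± 0.05. Its values crossed completely. Snrpg also overlapped, with 86.7, 86.5 and 87.3 FPKM against 84.6, 95.6 and 83.1 FPKM. The sign of both differences depended on scaling: with libraries scaled to a common median ratio they were -0.0045 for Snrpn and -0.00060 for Snrpg on the log2 scale.

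Snrpf was at 24.3, 24.9 and 28.2 FPKM after mock treatment and at 29.2, 32.5 and 28.6 FPKM after quinpirole, apart by a narrow gap (log2 difference 0.21 ± 0.07, limma adjusted p = 0.0879). The remaining subunits overlapped between the groups. Snrpe, at 32.9, 36.0 and 36.9 FPKM after mock treatment, was at 43.2 and 43.8 FPKM in 2 quinpirole libraries but at 33.1 FPKM in Quinpirole 3. Snrpd2 differed by 0.16 ± 0.06 and Snrpd1 by 0.10 ± 0.08 on the log2 scale. Summed over the 8 Sm ring genes, the level was 442 to 478 FPKM in the mock libraries and 475 to 528 FPKM in the quinpirole libraries, which overlapped. The sum over Lsm2 to Lsm8 was 162 to 168 FPKM and 190 to 207 FPKM, which did not. The FPKM total of all genes was also higher in every quinpirole library (425244 to 437164) than in every mock library (401769 to 413730). As a share of that total, Lsm2 to Lsm8 held 0.0404% to 0.0416% in mock and 0.0445% to 0.0474% in quinpirole libraries. The Sm ring held 0.110% to 0.116% and 0.112% to 0.121%, which overlapped.

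**Figure D2:**
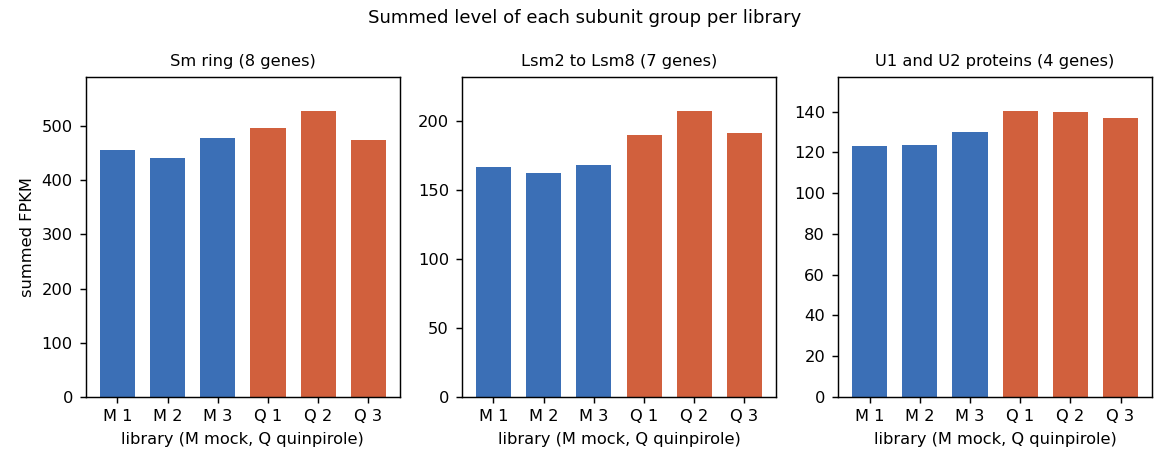
Summed FPKM of the 8 Sm ring genes, of Lsm2 to Lsm8 (7 genes) and of the 4 U1 and U2 proteins in each library, with mock in blue and quinpirole in orange. The Lsm2 to Lsm8 sum is at most 168 FPKM in mock and at least 190 FPKM in quinpirole, whereas the Sm ring sum of Quinpirole 3 (475 FPKM) is below that of Mock 3 (478 FPKM). The sums are not divided by the FPKM total of all genes, which is higher in every quinpirole library.

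The U7 Lsm genes and the other Lsm-domain genes gave no call by limma. Lsm10 of the U7 particle varied widely, with 19.9, 17.2 and 10.1 FPKM after mock treatment and 12.6, 20.5 and 16.2 FPKM after quinpirole. The lowest and the highest value fell in different groups, and the log2 difference of 0.09 ± 0.25 was far smaller than this spread. Lsm11, its partner, was the weakest member and was listed at 0.886 to 1.24 FPKM over the 6 libraries (0.03 ± 0.09 on the log2 scale). Lsm14a, a protein of cytoplasmic mRNA granules, and its relative Lsm14b differed by 0.09 ± 0.05 and -0.03 ± 0.06. Lsm12 was at 11.5, 11.9 and 11.6 FPKM after mock treatment and at 13.7, 5.26 and 12.3 FPKM after quinpirole. Its lower mean after quinpirole rested on Quinpirole 2, and without that library the log2 difference was 0.14 in place of -0.24.

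The libraries of a group were not alike for these genes. Mock 3 held the highest mock value for 15 of the 25 members. Quinpirole 2 held the highest value of all 6 libraries for 16 members, and Quinpirole 3 held the lowest quinpirole value for 15. The median deviation of the members from their own means was -0.08, -0.09 and -0.02 on the log2 scale in Mock 1, 2 and 3 and 0.07, 0.14 and 0.03 in Quinpirole 1, 2 and 3. Over all genes tested these medians lay between -0.012 and 0.0092. The calls moved with single libraries: 3 members (Lsm7, Lsm8 and Snrpf) were called without Mock 3, 1 member (Lsm8) without Quinpirole 3, and 0 without any one of the other 4 libraries. In these 4 fits 7 to 12 members were higher at an unadjusted limma p under 0.05. Of all 12255 genes tested, 2891 to 3374 passed it there in either direction. The direction held more widely, with 21 to 23 members higher when each library was left out in turn.

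Transcript length moved with the differences. The principal coding transcript of the members had a median of 1055 bases, against 2810 bases for the 12139 genes tested that have one. Across genes, which are not independent and share the same 6 libraries, the rank correlation (Spearman) of the log2 difference with this length was -0.53 for all genes and -0.51 for the 25 members. For 12 members with at most 1000 bases the median log2 difference was 0.21, and for all 949 genes of that length it was 0.15. For 5 members above that and up to 1500 bases it was 0.15, and for all 1282 such genes 0.12. Genes over 5000 bases had a median of -0.14.

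**Figure D3:**
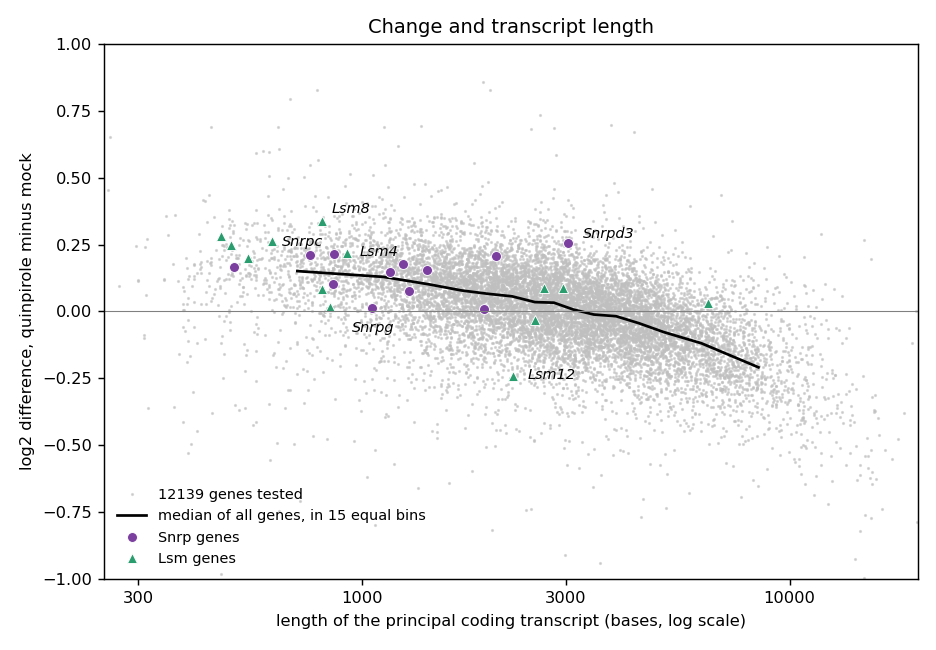
Log2 difference (quinpirole minus mock, on log2(FPKM + 1)) against the length of the principal coding transcript in bases (log scale) for 12139 genes, with the running median over 15 bins of equal gene number as a line, Snrp genes as circles and Lsm genes as triangles; 24 genes lie outside the axes. Most members are at the short end, where the median of all genes is above 0, and Snrpd3, at 3036 bases, lies above a line that is near 0.

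When the trend with length was removed from each library, the members were closer to the other genes. With the exonic length of the gene, 2 members were called higher, Lsm8 (0.32 on the log2 scale, limma adjusted p = 0.0429) and Snrpc (0.25, limma adjusted p = 0.0497), against 2.27% of all genes. For these genes the exons of all transcripts together span 4199 and 6521 bases, but the principal coding transcripts have 807 and 758 bases. A higher mean remained in 19 of 25 members, against 51.8% of all genes. With the length of the principal coding transcript, 0 of 25 members passed limma, against 1.14% of genes called higher. At an unadjusted limma p under 0.05, 3 members were higher and 1 lower, and 2896 of all 12139 genes passed in either direction. A higher mean was then found in 17 of 25 members, against 52.4% of all genes, and the median difference was 0.07. Snrpd3, whose coding transcript of 3036 bases is the longest of the called members, had a log2 difference of 0.25 ± 0.06 (limma adjusted p = 0.0787). Lsm8 was at 0.21 ± 0.06 (limma adjusted p = 0.0993), Lsm4 at 0.09 ± 0.06 and Snrpc at 0.08 ± 0.04. Snrpg and Lsm2 turned to -0.10 ± 0.04 and -0.11 ± 0.05. The part of length in the differences was not tested beyond these corrections, which would also remove a true change that follows length.

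**Figure D4:**
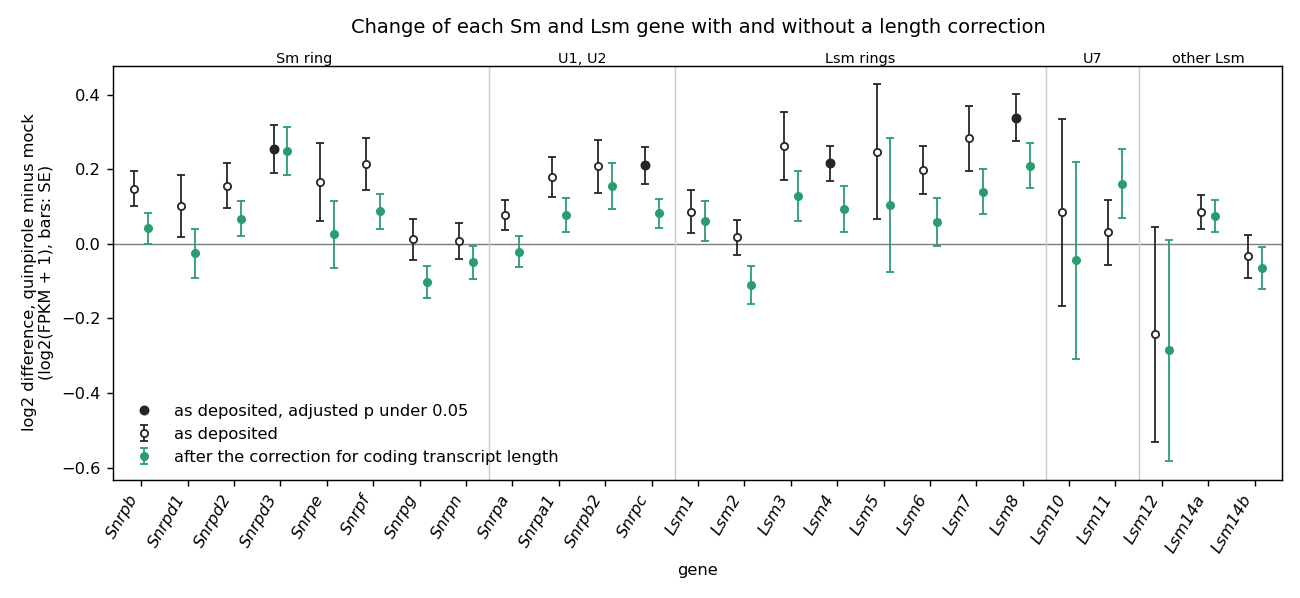
Log2 difference (quinpirole minus mock, on log2(FPKM + 1)) with its SE for each member, as deposited (black) and after the correction for coding transcript length (green); filled black points passed an adjusted p of 0.05. The 4 filled points are Snrpd3, Snrpc, Lsm4 and Lsm8, and of these Snrpd3 moves least (0.26 to 0.25).

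Promoters were compared by their letters. RefSeq (GRCm38.p6) gave 26 promoters for 20 of the 25 members, and both strands of the 250 bases before each start were searched. The core of the sites of ETS factors, CCGGAA, was in 7 of the 26 member promoters (26.9%), those of Lsm5, Snrpb2, Snrpc, Snrpd3, Snrpe, Snrpg and Snrpn, and in 12.03% of all 32851 promoters. It was present in members that rose, such as Snrpc, and in members with nearly equal means, such as Snrpg. Lsm8, which also rose, had no match, and Lsm4, which rose too, had no promoter to search. In 18 of the 26 windows some bases lie in exons annotated in GENCODE M21, among them 113 of the 250 bases for Snrpc, 250 for Snrpd3 and 236 for Snrpg, so that a match there can lie in transcribed sequence. The core of the antioxidant response element bound by Nrf2, TGACNNNGC, was in 1 member promoter, that of Lsm7 (3.85% against 10.2% of all promoters). The share with CCAAT was 30.8% against 33.9%, with the E-box CACGTG 7.69% against 6.02%, with TATAAA 7.69% against 12.4% and with the YY1 core AAGATGGC 3.85% against 1.57%. Each motif was searched on its own, so 1 stretch could count for more than 1 motif, and a match is a description only. The median GC content of the searched bases was 55.0% for the members and 52.4% for all promoters.

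Other spliceosome proteins, and genes of assembly, RNA maturation and partner processes, were examined in 6 lists of 71 genes, of which 70 were tested. Here 4 rose and 3 fell, and 42 had a higher mean, shares near those of all genes tested (5.74% called higher, 5.18% called lower and 53.8% with a higher mean). Among 26 other snRNP proteins, 2 rose and 1 fell, with a median log2 difference of 0.03. Txnl4a, a small protein of the U5 particle, was at 15.9, 17.3 and 16.8 FPKM after mock treatment and at 19.8, 20.3 and 23.3 FPKM after quinpirole (0.32 ± 0.07 on the log2 scale, limma adjusted p = 0.0337), and it was still called after the correction for coding transcript length (0.35, limma adjusted p = 0.0453). Snrnp27 of the U4/U6.U5 particle rose by 0.36 ± 0.07 on the log2 scale. Snrnp200, the large helicase that unwinds U4 from U6 RNA, was lower in every quinpirole library, with 32.0, 33.1 and 31.0 FPKM against 27.5, 26.1 and 26.7 FPKM (-0.25 ± 0.04 on the log2 scale, limma adjusted p = 0.0250).

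Among 7 proteins of the minor spliceosome, 1 rose (Zcrb1, 0.22 ± 0.05 on the log2 scale) and all 7 had a higher mean, with a median of 0.10 that became -0.0055 after the correction for coding transcript length. None of the 17 genes listed under snRNP assembly was called by limma in either direction, and 13 had a higher mean (median 0.07). Of 5 genes of U6 RNA maturation 1 rose, Larp7 (0.22 ± 0.05), and the median was -0.03. Of 9 partners of the Lsm1 ring in decapping and decay, 1 fell, the decapping scaffold Edc4 (-0.20 ± 0.04), and the median was -0.13, or -0.026 after that correction. Of 6 histone mRNA processing partners tested 1 fell, Sympk (-0.16 ± 0.04), and the median was 0.01. After the correction for coding transcript length, Txnl4a was the one gene of the 7 that was still called. When 1 library was left out, all 7 lost the call in 5 of the 6 cases, and without Mock 3 the 4 genes Edc4, Larp7, Snrnp27 and Snrnp200 were still called.

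The files hold no counts. From the steps of the lowest values, where 1 fragment is the unit, the depth was estimated at 22400000 to 27400000 fragments per library, with 56.4% to 64.0% of these values within 0.1 of a whole fragment against 20% for evenly spread values. The marker sums below were not divided by the FPKM total of all genes, which was higher in every quinpirole library. Groups that are narrowly apart in such a sum need not be apart as shares of the total. The astrocyte markers had summed levels of 1196 to 1302 FPKM after mock treatment and 1153 to 1192 FPKM after quinpirole. Of these, 2 of 9 were called lower, Atp1b2, which encodes ACSA-2, and the glutamate transporter Slc1a2. Aldh1l1 (means of 173.1 and 177.5 FPKM), Gja1 and S100b had higher means after quinpirole. Gfap (means of 528.4 and 484.8 FPKM), Aqp4, Slc1a3 and Sox9 had lower means, and none of these other markers was called. The 3 markers of dividing cells summed to 59.1 to 62.9 FPKM and 64.4 to 74.3 FPKM, and 1 of them, Cdk1, rose by 0.43 on the log2 scale. Mki67 of the same list had a lower mean after quinpirole (-0.14 on the log2 scale, not called), and without Cdk1 the sums overlapped, at 38.1 to 43.9 FPKM and 39.8 to 45.1 FPKM. Neuronal markers summed to 96.7 to 102 FPKM and 105 to 112 FPKM. Of the 3 that were tested, 1 was called higher, Stmn2 (means of 54.5 and 63.8 FPKM). Tubb3 had a higher mean and Map2 a lower one (25.5 and 23.4 FPKM), and neither was called. The other 5 of the 8 had means below 1 FPKM, with Rbfox3 and Snap25 below 0.1 FPKM in both groups' means. Microglial markers summed to 324 to 341 FPKM and 342 to 376 FPKM, with none of 6 called by limma. Without C1qa they were at 124 to 132 FPKM and 118 to 124 FPKM, and the means of Cx3cr1 and Csf1r were lower after quinpirole. Markers of the oligodendrocyte lineage summed to 205 to 220 FPKM and 212 to 223 FPKM. Endothelial markers were low in sum, at 7.67 to 8.01 FPKM and 6.12 to 7.09 FPKM. The 3 markers of pericytes and smooth muscle summed to 2546 to 2715 FPKM and 2731 to 2902 FPKM, with Pdgfrb called lower, and the 3 ependymal markers to 121 to 132 FPKM and 119 to 127 FPKM. Acta2, a gene of smooth muscle and pericytes, was high in both groups (means of 2590 and 2789 FPKM), as was Foxj1 of ependymal cells (126 and 122 FPKM), while the markers Rgs5 and Tmem212 of these cells were below 1 FPKM. The part of these cells in the differences of the Sm and Lsm genes was not tested, and in bulk samples fewer cells of a type and less RNA per cell cannot be told apart.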

How the data were processed

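The authors mapped paired-end reads with TopHat2 (version not given in the sources used here) to GRCm38, kept reads with no or 1 mismatch, and deposited FPKM values, 1 for each gene in each library. The program and annotation behind FPKM are not given in the sources used here. Of 17193 identifiers, 17090 had a symbol. Groups follow the labels. The members and lists were chosen with earlier results of these data known. All members are described, and from each related list at most 2 called genes per direction are named. limma 3.58.1 (R 4.3.3; lmFit, eBayes with trend, two-sided, Benjamini-Hochberg threshold 0.05) was run on log2(FPKM + 1) for 12255 genes with a mean of at least 1 FPKM, a scale that understates changes of low genes, and tested on simulated data. For the length corrections, each library's deviation from the gene mean was fitted by loess (span 0.3) on log2 length and subtracted; that with coding transcript length was added after seeing the data. Lengths, positions and words of 50 bases came from GENCODE M21, with Python 3.11.15 and pandas 2.3.3. Alternatives are given at the end. A 3 against 3 exact permutation test of a single value cannot go below p = 0.1, so none was used.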

Additional observations from a re-analysis of the deposited data

How the results depend on the processing

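With a pseudocount of 0.1, a minimum mean of 5 FPKM or robust eBayes, the same 4 members were called. Median ratio scaling called 3 (Lsm4, Lsm8 and Snrpc). 1 member, Lsm8, was called without the filter (633 genes called in all, against 1339), with quantile normalization (783 genes) and with eBayes without trend (714 genes). The corrections for exonic length and for coding transcript length called 2 and 0 members (535 and 273 genes) and brought the members' median log2 difference to 0.0795 and 0.068. When each library was left out, 0 to 3 members and 3 to 1215 genes were called, the fewest genes without Mock 2 (3), Mock 1 (6), Quinpirole 1 (11) and Quinpirole 2 (25), then Quinpirole 3 (210); the members' median stayed between 0.13 and 0.18, and 21 to 23 members had a higher mean.

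The labels do not say whether the replicate numbers pair the libraries. Deviations from the group means had correlations of 0.03, -0.07 and -0.10 between mock and quinpirole libraries of number 1, 2 and 3. Between libraries of unequal number they ran from -0.10 to 0.15. With 3 libraries per group these values cannot exclude a pairing. With the number as a replicate block, 0 members and 2 genes were called, and with the block and the exonic length correction 0 members and 0 genes (median 0.0795); 11 and 5 members were higher at an unadjusted p under 0.05, and 3308 and 2738 genes passed it.

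Differences that changed sign were all of members that had not been called. On the log2 scale, the exonic length correction, with or without the block, gave -0.037 for Lsm2, -0.097 for Snrpg, -0.0795 for Snrpn and -0.047 for Lsm10. The coding transcript length correction gave -0.11 for Lsm2, -0.025 for Snrpd1, -0.10 for Snrpg, -0.049 for Snrpn, -0.021 for Snrpa and -0.044 for Lsm10. Quantile normalization gave -0.059 for Snrpg and -0.031 for Snrpn, and median ratio scaling -0.00060 and -0.0045. Leaving out 1 library gave lowest and highest values of -0.0088 and 0.042 for Lsm2, -0.050 and 0.050 for Snrpg, -0.028 and 0.046 for Snrpn, -0.19 and 0.27 for Lsm10, -0.027 and 0.097 for Lsm11 and -0.47 and 0.14 for Lsm12. For Lsm2 the value without Quinpirole 1 was -0.0077, for Snrpn -0.010, and for Lsm10 without Quinpirole 2 -0.079. The causes of these changes were not tested. For Lsm5, about 87.1 to 139 fragments per library were estimated, and the part of this number in its spread was not tested.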
